A study of Drosophila melanogaster with 2 samples.

Results

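Chromatin immunoprecipitation with sequencing (ChIP-seq) for a CG32121-eGFP fusion protein was examined at 9 genes of the Toll and Imd pathways, the 2 main routes to NF-kappaB activation in Drosophila melanogaster. The genes were spz, Tl, cact, dl and Dif of the Toll pathway and PGRP-LC, imd, key and Rel of the Imd pathway. They were chosen by name, with earlier results of these data known. Each summit of the conservative peak list that fell in a gene body or within 1 kb upstream was assigned to that gene. The samples were whole pupae of 2 days from the strain CG32121-GFP, which carries an insertion targeting CG32121, and formed 1 group of 2 biological replicates precipitated with an antibody against GFP. No input or untagged sample was analysed here, sequencing depth is unknown from these lists, and whole animals mix all tissues, so binding in a few cells and weak binding in many cannot be told apart. The 9 genes are among 13945 protein-coding genes on the 6 main arms, and their windows held 19 of the 7676 summits in the list.

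The Toll receptor is activated by the cleaved ligand Spätzle. It signals to the destruction of Cactus, an inhibitor of the IkappaB type, which frees Dorsal and Dif, transcription factors of the NF-kappaB family. The pathway patterns the embryo along its dorsoventral axis and drives the response to fungi and many Gram-positive bacteria. In the Imd pathway the membrane receptor PGRP-LC binds bacterial peptidoglycan and signals through the adaptor Imd and an IkappaB kinase complex that contains Kenny, the product of key. The factor activated at its end is Relish, encoded by Rel. Both pathways induce antimicrobial peptides.

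The sequences below are shown because they carry the 5 strongest summits at these genes and the summits at spz and Tl that held a searched motif. Each is the plus strand of dm6 over 101 bp centred on a summit, read from the NCBI Release 6 genome. Capitals mark motif matches.
cact, 158 bp upstream of a start, chr2L:16325733-16325833: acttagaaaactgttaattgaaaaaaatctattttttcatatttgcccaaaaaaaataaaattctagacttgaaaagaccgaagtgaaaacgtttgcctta
Dif, 1963 bp upstream of its inner start, chr2L:17430112-17430212: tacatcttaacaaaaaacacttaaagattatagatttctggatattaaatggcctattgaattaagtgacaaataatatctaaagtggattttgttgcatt
Tl, 732 bp downstream, chr3R:26799723-26799823: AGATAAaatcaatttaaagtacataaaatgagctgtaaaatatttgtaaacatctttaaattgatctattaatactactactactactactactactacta
Dif, 1705 bp downstream of its outer start, chr2L:17431406-17431506: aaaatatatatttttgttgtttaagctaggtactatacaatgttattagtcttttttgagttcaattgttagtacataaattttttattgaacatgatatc
dl, 615 bp upstream, chr2L:17450929-17451029: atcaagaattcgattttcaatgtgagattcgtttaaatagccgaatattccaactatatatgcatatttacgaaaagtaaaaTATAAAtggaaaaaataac
spz, 248 bp upstream, chr3R:27070268-27070368: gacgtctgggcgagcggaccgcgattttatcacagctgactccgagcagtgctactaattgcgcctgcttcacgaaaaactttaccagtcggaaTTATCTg
spz, 993 bp upstream, chr3R:27071013-27071113: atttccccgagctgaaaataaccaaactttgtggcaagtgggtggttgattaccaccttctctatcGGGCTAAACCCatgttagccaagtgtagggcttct
Tl, 52 bp upstream, chr3R:26798939-26799039: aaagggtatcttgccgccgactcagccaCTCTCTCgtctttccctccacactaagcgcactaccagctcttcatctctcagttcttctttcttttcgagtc
The Tl window 732 bp downstream of the start ended in a repeat with 9 tandem TAC units. The 5 strongest summits had a GC content of 20.8 to 25.7% (median 24.8%), against a median of 44.5% for the other 14 member summits. Over all peaks split by signal into 5 equal groups, the median GC content was 29.7% in the group with the highest signals and 43.6% in that with the lowest.

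**Figure D1:**
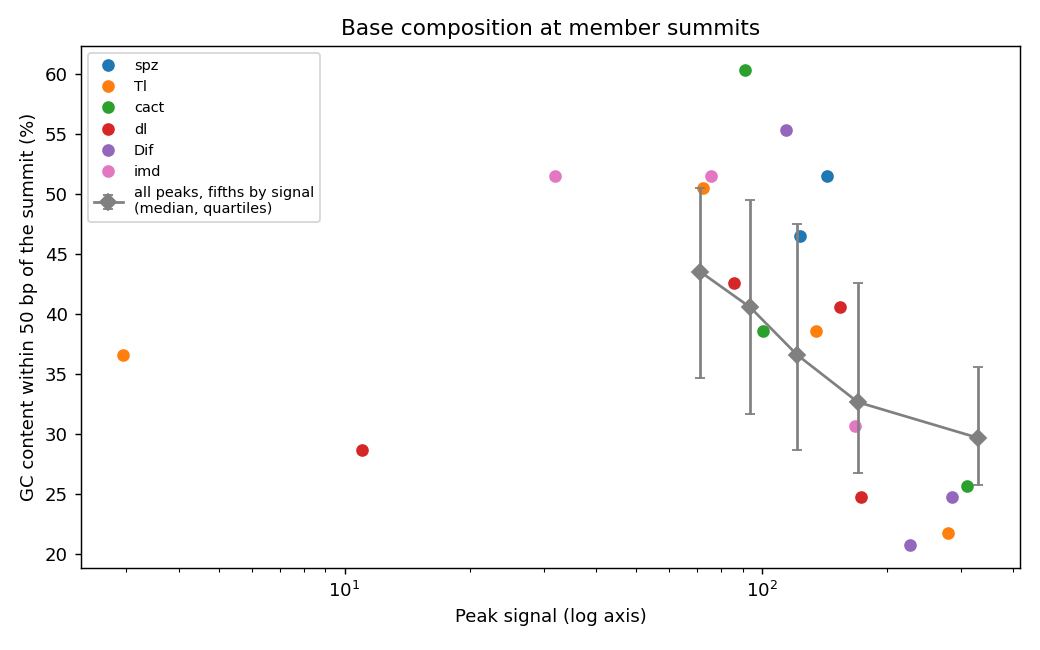
GC content within 50 bp of each of the 19 member summits (percent, vertical axis) against peak signal (log horizontal axis), coloured by gene, with the median and quartiles of all 7676 peaks in 5 equal groups by signal in grey. The 5 strongest member summits lie at 20.8 to 25.7% GC, and the member summit with the highest GC content, 60.4%, has a signal of 91.2.

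Of the 9 genes, 6 had at least 1 summit, where 28.8% of all protein-coding genes had one. Of the 9, 5 had 3 or more summits (Tl, cact, dl, Dif and imd), against 5.67% of all protein-coding genes, most of which have far shorter windows than Tl, cact, dl and Dif. Among genes of the same window size, at least as many summits as the member had were found in 32.8% for Tl, 19.8% for cact, 10.7% for dl, 41.3% for Dif and 0.744% for imd, whose 3 summits lay in 2 regions. On the list of replicate 2 alone 3 genes had 3 or more (cact, dl and Dif), against 5.07% of all protein-coding genes. On that of replicate 1 alone 1 did (Dif), against 3.2%. At an IDR limit of 0.001 there were 2 (Tl and dl), against 2.74%. All these counts are of summits, and the 4 summits of Tl and of dl lay in 3 regions each. At the limit of 0.001 the 3 of each gene included 2 in overlapping peaks, with signals of 135.3 and 2.95 at Tl and 154.2 and 11.0 at dl. Counted by region, neither gene had 3 there. All 5 Toll pathway genes had summits, 16 in all, and 1 of the 4 Imd pathway genes did, imd, with 3. Windows of unequal length give unequal chances of a summit. The share of genes with a summit was 14.3% for windows under 3000 bp, 27.5% from 3000 to 5000 bp, 43.2% from 5000 to 10000 bp, 55.2% from 10000 to 20000 bp and 66.7% above that. The member windows summed to 123 kb and held 1.54 summits per 10 kb, against 0.742 for the windows of all protein-coding genes and 0.573 for the arms. Per 10 kb the Toll genes stood at 1.60 and the Imd genes at 1.30, a value that came from imd alone. With 1 group and no control sample, no test was made on these counts.

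**Figure D2:**
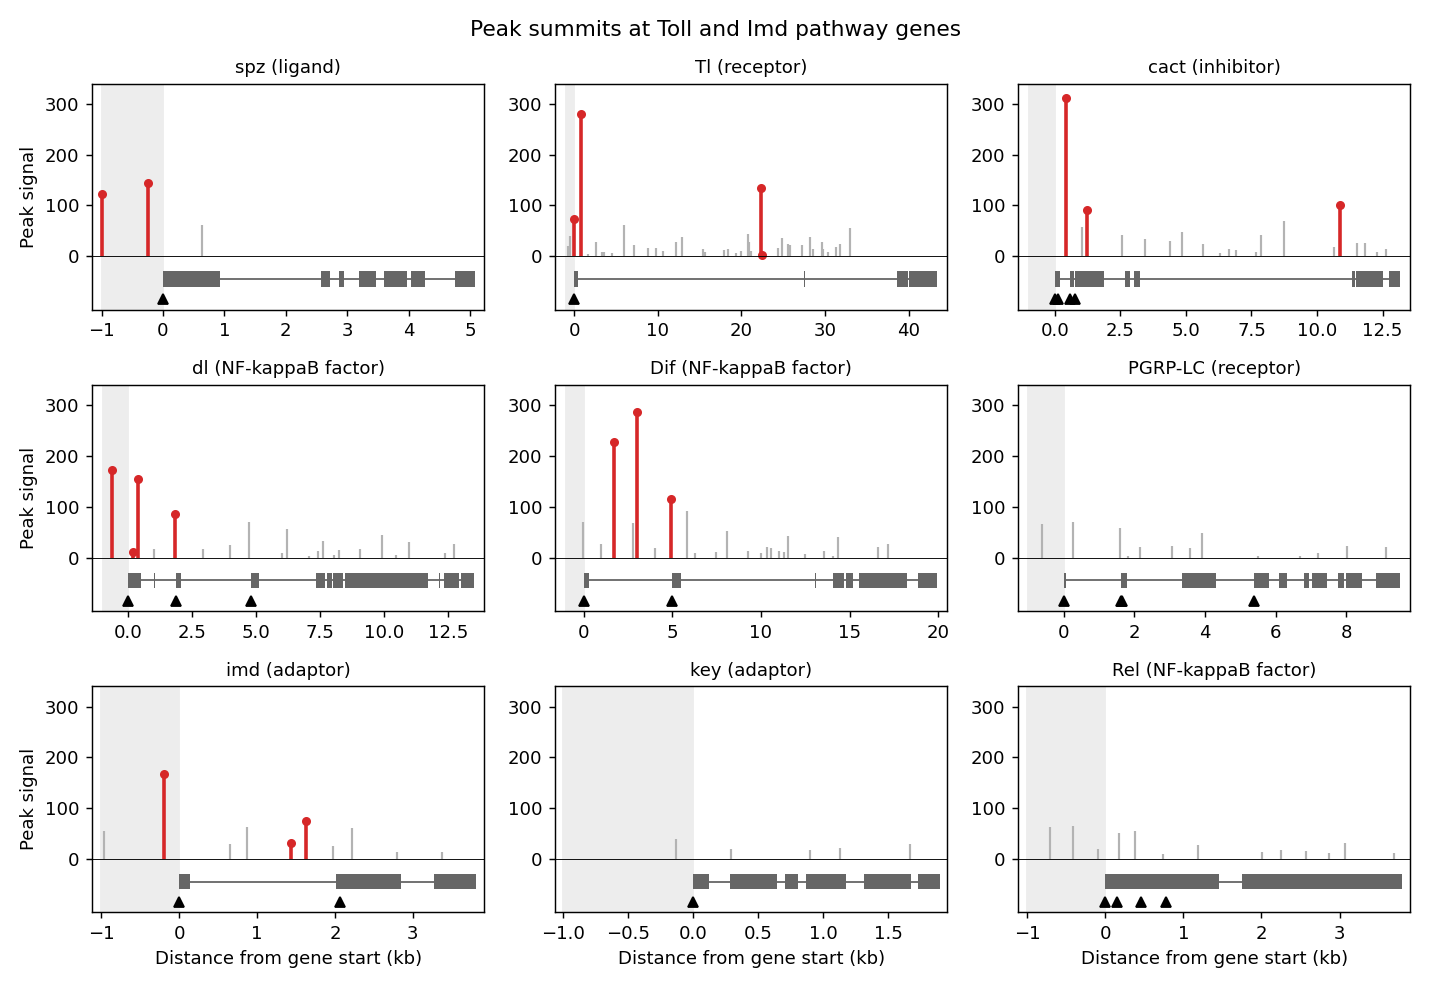
Peak signal (vertical axis) at each of the 9 genes against distance from the outermost start in the direction of transcription (kb, horizontal axis, its own scale in each panel). Red stems are the 19 summits of the conservative list, grey stems are candidates that missed its limit, dark boxes are exons of any transcript, triangles are transcription start sites and the shaded band is the 1 kb upstream. PGRP-LC, key and Rel have grey stems only.

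The ligand gene spz (FBgn0003495) lies on 3R from 27064990 to 27070070 on the minus strand, with 1 annotated transcription start site (TSS). It had 2 summits, both upstream and none in its body. The nearer one, 248 bp upstream of the TSS at 27070318, had a signal of 143.8, with 83.0 in replicate 2 and 54.9 in replicate 1. Signal is the authors' value for a peak. Its scale is not stated, so it is used to describe and rank peaks only. The farther one, 993 bp upstream at 27071063, had a signal of 123.4, with 81.8 in replicate 2 and 37.8 in replicate 1. It lay just inside the 1 kb limit and was not in the other thresholded list of the series. No further member summit lay between 1 and 2 kb upstream of any of the 9 genes.

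The receptor gene Tl (FBgn0262473) spans 43363 bp on 3R from 26799041 to 26842403, on the plus strand and with a single TSS. Its 4 summits formed 3 separate regions. The strongest was 732 bp downstream of the TSS at 26799773, in the first intron of all 3 transcripts, and reached 279.8 (rank 1013), at 180.5 in replicate 2 and 94.9 in replicate 1. At the promoter itself, 52 bp upstream of the TSS, the signal was only 72.5 (44.9 in replicate 2 and 35.8 in replicate 1), above only 10.8% of all peaks. A distal intronic region 22292 bp downstream, at 26821333, had a signal of 135.3 with 81.2 in replicate 2 and 49.1 in replicate 1. Tl had 2 summits on the thresholded list of replicate 2 alone and 1 on that of replicate 1 alone.

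The Imd pathway's receptor gene PGRP-LC (FBgn0035976, 3L from 9338810 to 9348336, plus strand) had no summit in the list. Its window of 10527 bp is near the lower edge of the class from 10000 to 20000 bp, where 55.2% of genes had one. In the class from 5000 to 10000 bp the share was 43.2%. PGRP-LC has 4 TSSs. Among 13 candidate peaks in its window, meaning peaks of the ranked list of the series that missed the limit of 0.01 on the irreproducible discovery rate (IDR), the closest lay 277 bp downstream of a TSS in an intron, with an IDR of 0.0132. Its signal was 69.4, with 37.1 in replicate 2 and 31.8 in replicate 1. The neighbouring gene PGRP-LF, whose product inhibits the pathway, had a summit 277 bp upstream of its TSS that stood at 73.8, from 46.6 in replicate 2 and 33.5 in replicate 1, and an IDR of 0.00512. These 2 peaks thus lay close to the limit on either side, with similar signals in both replicates.

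Of the 2 genes for adaptor functions, imd (FBgn0013983) had 3 summits and key (FBgn0041205) had none. The gene imd lies on 2R from 18409796 to 18413599 on the minus strand and has 2 TSSs. Its strongest summit, 197 bp upstream of the outer TSS at 18413796, had a signal of 167.7. Replicate 2 stood at 126.4 there and replicate 1 at 42.2, a ratio of 3.0 and the highest among the member summits. The other 2 summits lay 203 bp apart in the first intron, with signals of 75.6 and 32.0, and both were matched to the same peak in each replicate, 47.1 in replicate 2 and 37.4 in replicate 1. All 3 also fall in the window of Dp1, a gene for an RNA-binding protein on the opposite strand that overlaps imd. The intronic summit at 18411966 was 61 bp upstream of a Dp1 TSS and 434 bp upstream of the inner imd TSS. The summit at 18413796 was 255 bp upstream of another Dp1 TSS. Which of the 2 genes these peaks belong to cannot be told apart. The key window, the shortest at 2898 bp, held 5 candidates with signals of 38.8 or less and an IDR of 0.272 or more, and 14.3% of genes of that size had a summit.

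The inhibitor gene cact (FBgn0000250, 2L from 16313036 to 16326207, minus strand, 4 TSSs) had the strongest summit of the set. It lay at 16325783, 158 bp upstream of an inner TSS and within the first intron of 2 of the 5 transcripts, in a peak only 179 bp wide. The signal was 311.2 (rank 847), with 190.9 in replicate 2 and 108.5 in replicate 1. A second summit 438 bp downstream of the innermost TSS fell in a coding exon and stood at 91.2 (64.4 in replicate 2 and 26.4 in replicate 1). The third lay 10072 bp downstream of that TSS in an intron, at 101.0 (63.2 in replicate 2 and 30.5 in replicate 1). The strong peak was in the thresholded list of each replicate, and the weaker ones were in that of replicate 2 alone.

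The 3 NF-kappaB genes differed. The Toll factors dl (FBgn0260632, 2L from 17436830 to 17450364) and Dif (FBgn0011274, 2L from 17413248 to 17433161) are tandem neighbours on the minus strand with 3668 bp between them, and both had summits around their upstream ends. The Imd factor Rel (FBgn0014018, 3R from 9044183 to 9047977, minus strand) had none in a gene of 3795 bp with 4 TSSs.

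At dl, a summit 615 bp upstream of the outermost TSS had a signal of 173.3, with 120.4 in replicate 2 and 49.3 in replicate 1. This summit lies in an exon of the noncoding gene lncRNA:CR46204, 485 bp from the start of that gene on the other strand. In the 5′ UTR, 404 bp downstream of the same dl TSS, the signal was 154.2, with 83.2 in replicate 2 and 73.6 in replicate 1, so the replicates were nearly level there. That summit and the weaker one beside it also lay 534 and 333 bp upstream of the start of lncRNA:CR46204, so which of the 2 genes these peaks belong to cannot be told apart. The third region, 39 bp upstream of an inner TSS, stood at 85.7 (50.5 in replicate 2 and 28.5 in replicate 1).

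At Dif, the strongest summit lay 1963 bp upstream of the inner of 2 TSSs at 17430162, in the first intron of the 1 transcript that spans it, and reached 286.0 (197.4 in replicate 2 and 97.8 in replicate 1). A second intronic summit 1705 bp downstream of the outer TSS, at 17431456, had 226.8 (154.9 in replicate 2 and 72.6 in replicate 1) and a width of 123 bp. It falls within 1 kb upstream of a 48 bp fragment annotated as a transposable element. The summit 11 bp upstream of the inner TSS was weaker, at 114.7, with 60.2 in replicate 2 and 52.8 in replicate 1. Counted by summit, the thresholded list of each replicate held 3 peaks in the Dif window. In that of replicate 2 none of them overlapped the peak 11 bp upstream of the inner TSS.

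The Rel window held 13 candidates. That with the highest signal, 64.0, lay 409 bp upstream of the outermost TSS (IDR 0.0416), and neither replicate's ranked list had a summit within 200 bp of it. The lowest IDR, 0.0184, was shared by candidates 32 bp downstream and 72 bp upstream of a TSS with signals of 50.6 and 55.7. The latter had 49.8 in replicate 2 and 23.0 in replicate 1. In the other ranked list of the series the peak with the signal of 55.7 had an IDR of 0.0096, within the limit. For genes with windows of 3000 to 5000 bp, which include Rel and imd, 27.5% had a summit.

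**Figure D3:**
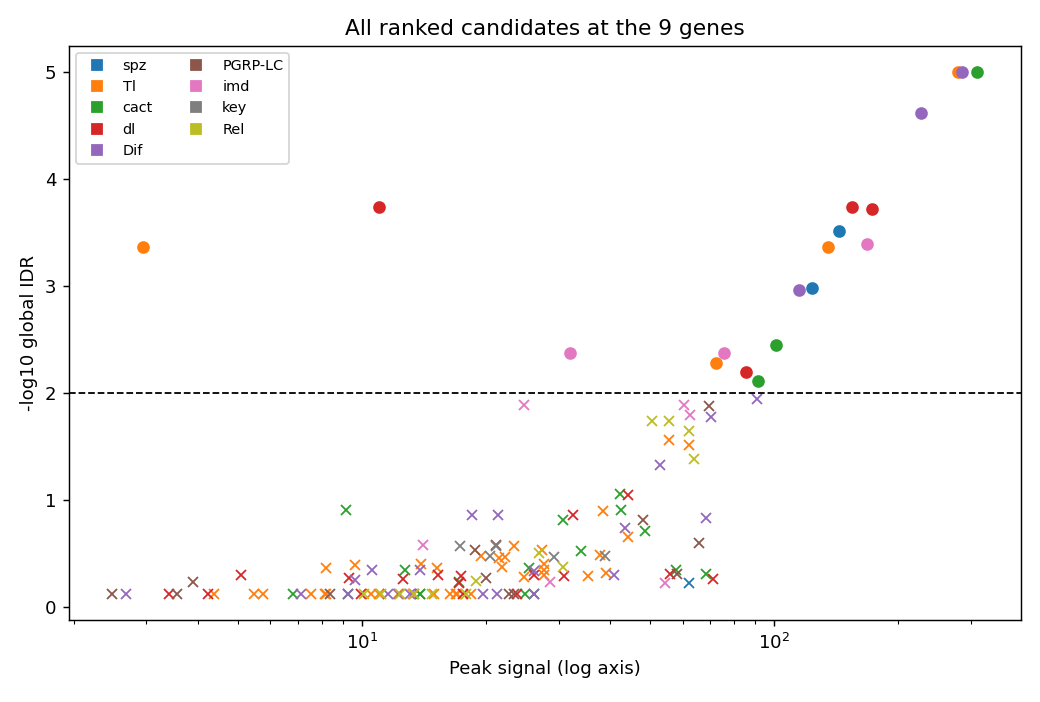
The −log10 of the global IDR (vertical axis) against peak signal (log horizontal axis) for every candidate of the ranked list in the windows of the 9 genes, coloured by gene. Circles are the 19 peaks of the conservative list, crosses are candidates outside it and the dashed line is the IDR limit of 0.01. PGRP-LC and Rel reach just under the line and key stays far below it.

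All 6 genes with a summit had one within 500 bp of a TSS, as did 21.5% of all protein-coding genes and 74.5% of those with a summit. The only such peak at Tl overlapped none in the thresholded list of either replicate. The only one at Dif overlapped none in that of replicate 2, and those at imd overlapped none in that of replicate 1. In 3 of the 6, spz, cact and imd, the strongest summit was such a promoter summit. At Tl, dl and Dif the strongest lay 615 to 1963 bp from the nearest TSS. Over all genes with a summit, the strongest was within 500 bp of a TSS in 61.5%. By place within the gene, 11 of the 19 summits were intronic, 5 upstream, 2 in a 5′ UTR and 1 in a coding exon. The places of all peaks are not given here, so whether this split is particular to these genes was not tested.

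The member peaks were of ordinary strength. Their median signal was 123.4 (quartiles 80.6 and 170.5), against 121.5 (quartiles 88.5 and 190.6) for all peaks. The signals of 3 summits, 2.95 at Tl, 11.0 at dl and 32.0 at imd, were under 50, which is 15.8% of the 19, against 6.29% of all peaks. Each of these summits lay 201 to 208 bp from a stronger one in an overlapping peak with the same IDR, and without them the genes had 16 summits in 16 separate regions. In the whole list 97.5% of the 483 summits under 50 shared a region with a summit of 50 or more. Distance and IDR were not compared for these.

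Replicate signals were compared at the 17 member summits that had a summit within 200 bp in both replicates' ranked lists. They include both intronic imd summits, which were matched to the same peak in each replicate, so the 17 are not all separate measurements. All 17 were higher in replicate 2, as were 96.1% of the 7322 summits matched in this way over the whole list. The median ratio of replicate 2 over replicate 1 was 1.77 (range 1.13 to 3.0), against 1.72 for all peaks. The ratio was lowest at dl in the 5′ UTR (1.13) and at the inner Dif promoter (1.14), and highest at the outer imd promoter. Of the 19 member peaks 14 (73.7%) overlapped a peak in the thresholded list of replicate 2 and 9 (47.4%) in that of replicate 1, against 77.5% and 55.1% of all peaks. By summit, the list of replicate 2 alone placed a peak at the same 6 genes (27.6% of all genes) and that of replicate 1 at 5, without imd (19.3% of all genes).

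**Figure D4:**
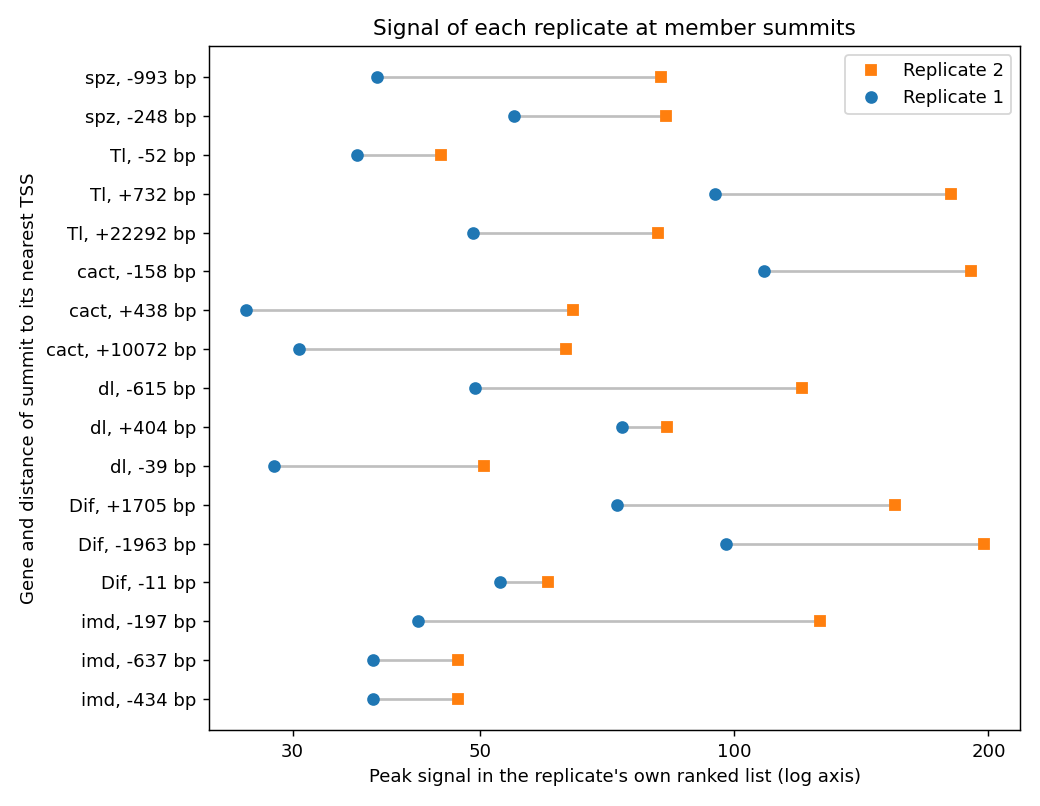
Signal of each replicate (log horizontal axis, orange squares for replicate 2 and blue circles for replicate 1) at the 17 member summits matched in both, labelled by gene and distance to the nearest TSS. Replicate 2 is higher in all 17, as at 96.1% of all matched summits of the list. Both intronic imd summits show the same pair of values. The ratio is highest at the imd promoter, 126.4 in replicate 2 against 42.2 in replicate 1.

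Motifs were searched on both strands within 50 bp of the 19 summits, and a match is a description of the letters only. An NF-kappaB-type sequence, GGG and CC separated by 5 bases, occurred at 1 member summit and at 4.42% of all summits. That summit was the one 993 bp upstream of spz, where the printed capitals hold 2 overlapping matches, 1 on each strand. The GATA site AGATAA was present at 3 member summits, at Tl 732 bp downstream, at spz 248 bp upstream and at the weak dl summit of signal 11.0 (6.85% of all summits). The GAGA element GAGAGAG was found 52 bp upstream of Tl (3.27% of all summits) and the TATA box sequence TATAAA 615 bp upstream of dl (17.7% of all summits). Neither the motif 1 core GGTCACAC (0.547% of all summits) nor the DNA replication-related element TATCGATA (0.638%) was in these windows.

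The other 78 genes of the pathways were grouped into 8 lists. Of these genes 26 had a summit (33.3%, against 28.8% of all protein-coding genes). The share was highest for the Toll intracellular transducers. It was 50% for both the Imd transducers and the Imd negative regulators, and 0 for the antimicrobial peptides and the other Imd recognition genes.

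Toll intracellular transducers had a summit in 6 of 7 cases (Wilson 95% interval 48.7 to 97.4%). The list was chosen with earlier results of these data known, so the interval is no test against all genes. With gene bodies alone the count was 2 of 7, against 16.7% of all protein-coding genes. Promoter summits were at tub (88.2), which encodes the adaptor Tube, at pll (244.8), which encodes the kinase Pelle, at Traf6 (132.7) and at Deaf1 (96.3), a transcription factor gene. Myd88, encoding the adaptor that binds the receptor, had 2 summits away from its starts, up to 122.4. Pli, whose product binds Pelle, had 10 summits in a window of 30891 bp and a signal of 782.6, and cactin had none. Myd88, Pli and cactin were picked out after their values were seen.

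Imd intracellular transducers had a summit in 5 of 10 cases, with promoter summits at IKKbeta (110.5), the kinase subunit that partners Kenny, at ben (175.5), a ubiquitin-conjugating enzyme gene, and at eff, another such gene, whose strongest summit was intronic (679.3). Negative regulators of Imd had one in 6 of 12 cases. These were PGRP-LF, PGRP-LB (112.0), which encodes a peptidoglycan-degrading amidase, POSH (398.9), CYLD (183.9), scny (145.8) and dnr1, whose strongest of 7 summits stood at 1184.0, away from its starts; dnr1 was picked out after its values were seen. The 3 other Imd recognition genes PGRP-LE, PGRP-LA and PGRP-SB1 had none.

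Toll-related receptor genes had a summit in 3 of 7 cases, 18w (129.9), Toll-7 (133.1) and Tollo, each with one at its promoter. The strongest Tollo summit (149.8) was another one, in its 3′ UTR. The genes for ligands related to Spätzle had one in 2 of 5, spz3 (143.9) and spz4, each with one at its promoter, and the strongest spz4 summit (213.1) was intronic. In the upstream protease and recognition list the count was 4 of 15, near the share of all genes. These 4 were GNBP1 (462.5), GNBP3 (77.9), Hayan (91.3), a protease gene, and Spn27A (238.2), a gene for a serine protease inhibitor of the cascade.

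None of the 19 antimicrobial peptide genes in the list had a summit (Wilson 95% interval 0 to 16.8%). The list did not include Anp, which had a summit 972 bp upstream. The 19 genes are short, with windows of 1268 to 1963 bp and a median of 1483 bp. Of genes with windows under 3000 bp, a class that also holds longer windows than these, 14.3% had a summit. In 12 of the 19 windows the ranked list had no candidate either, against 33.3% of genes with windows under 3000 bp and 22.8% of all. The genes sit in clusters, so they are not independent of each other.

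**Figure D5:**
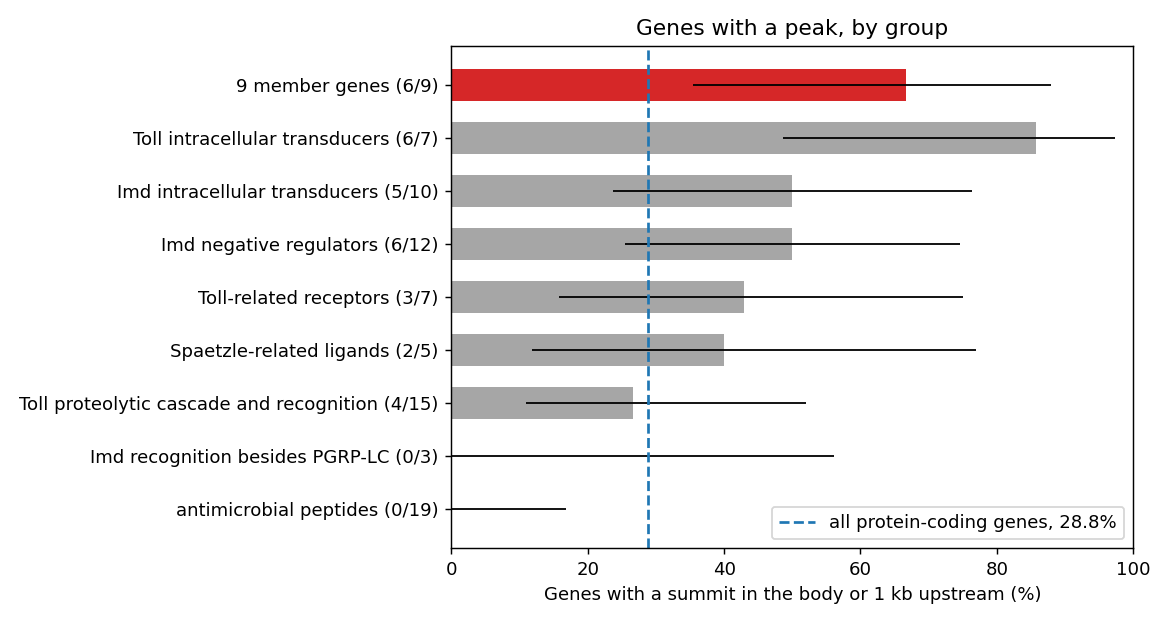
Share of genes with a summit in the body or 1 kb upstream (percent, horizontal axis) for the 9 genes, in red, and the 8 lists of other pathway genes, in grey, with Wilson 95% intervals as lines and counts in brackets. The dashed line is the 28.8% of all protein-coding genes, and the bars run between 85.7% for Toll transducers and 0 for antimicrobial peptides. The lists were chosen with earlier results known and their windows differ in length, so the intervals are no test against that line.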

How the data were processed

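ChIP-seq peak lists of 2 replicates in dm6 were used. For each peak the authors deposited a signal, of unstated scale, and in the ranked lists the −log10 of the global IDR. Per the deposited notes, the series' lists derive from the alignments of both replicates and from a further input whose content the notes do not describe. The sources used here name no aligner or peak caller. To give each replicate's value at a summit, the closest summit of its ranked list was taken, up to 200 bp away. Genes, TSSs and places came from Ensembl release 115 and sequence from the NCBI Release 6 genome. Of the 78 other genes 1 (dnr1) was matched through a synonym. The genes named are the 9 and, per list, genes with a summit within 500 bp of a TSS, otherwise the gene of highest signal, and genes sharing a counted summit. Members and lists were chosen with earlier results of these data known. No test was made, since there was 1 group. Wilson intervals cover counting error only. Alternatives were other lists, IDR limits, windows and match distances. Python 3.11.15, pandas 2.3.3 and SciPy 1.17.1 were used.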

Additional observations from a re-analysis of the deposited data

How the results depend on the processing

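Of 104 recomputed counts and values over 12 results, 88 stayed close to the reported ones: within 1.5 times for counts, and within the spread of the replicate lists or ratios for the rest. Of the 9 genes, 5 to 7 had a summit under every setting tried. The 5 were without imd, with replicate 1's list alone, and without spz, with gene bodies alone. The 7 included Rel, with ranked peaks within the IDR limit added. Leaving out a replicate gave 8 summits (replicate 1's list alone) to 14 (replicate 2's list alone), or 0.65 to 1.14 per 10 kb. At an IDR limit of 0.001 there were 11, or 0.894 per 10 kb. Counting separate regions, or leaving out signals under 50, both chosen after seeing the data, gave 16.

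With gene bodies alone 16.7% of all protein-coding genes had a summit, and the genes with one were 3 of 10 for Imd transducers, 1 of 5 for Spätzle-related ligands, 2 of 7 for Toll transducers, 1 of 15 for upstream proteases and recognition and 1 of 7 for Toll-related receptors. The protease list had 2 at the IDR limit of 0.001 (19% of all protein-coding genes), and 2 to 4 with a replicate left out. The other Imd recognition list had 1, PGRP-LA, in the other thresholded list and with ranked peaks added, and 0 to 1 with a replicate left out. Antimicrobial peptide genes had 2 of 19 with 2000 bp upstream (32.3% of all protein-coding genes). Counts at single members moved by over 1.5 times in 14 of 81 recomputations, at Tl, spz, cact, dl, imd and Rel. With replicate 1's list alone they were 1 at Tl, spz and cact, 2 at dl and 0 at imd. The lists do not give read depth, so what depth limits was not tested. No paired analysis was possible because there was 1 group.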

Other observations

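With 2000 bp upstream, summits entered the windows of 2 antimicrobial peptide genes, CecA1 and Def, and both summits also lay upstream of a TSS of another gene. The one 1959 bp upstream of Def, a defensin gene, reached 519.6 (324.0 in replicate 2 and 178.8 in replicate 1) and lay 291 bp upstream of a TSS of magu. The one 1898 bp upstream of CecA1, a cecropin gene, reached 139.2 (92.9 in replicate 2 and 40.7 in replicate 1). It lay 28 bp upstream of a TSS of the ribosomal protein gene RpS7, 937 bp upstream of snoRNA:Psi28S-2626 and 972 bp upstream of Anp. Anp was not in the antimicrobial peptide list, and this summit fell within 1 kb upstream of it. These 2 summits were picked out after their values were seen.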
